A study of Mus musculus with 23 samples.

Results

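The 44 genes described here encode nuclear subunits of the oxidative phosphorylation system, and they were measured in the livers of mice that had inhaled filtered air, carbon black (CB) or diesel exhaust particles (DEP). They were taken by symbol from the 18688 of 22575 array features that carry a listed gene, with Cox4i1 also searched under its older alias Cox4a, and each gene was represented by the feature with the highest mean of log2 Cy5 plus log2 Cy3. All 44 were found. The grouping used placed 13 in complex I, 4 in complex II, 5 in complex III, 10 in complex IV and 11 in complex V. Ndufa4 was placed in complex I by its name, and 1 gene is cytochrome c.

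Oxidative phosphorylation takes place in the inner mitochondrial membrane. Complexes I and II pass electrons from NADH and from succinate to ubiquinone, complex III passes them on to cytochrome c, and complex IV hands them to oxygen. The protons pumped on the way return through complex V, the ATP synthase, whose rotor ring of c subunits turns the catalytic head that makes ATP. Hepatocytes are rich in mitochondria and use this ATP for gluconeogenesis, urea synthesis and the secretion of plasma proteins.

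The mice were female C57BL/6, aged 12 to 13 weeks according to the labels, and inhaled filtered air (8 mice), 20 mg/m3 of CB (printex in the labels, 8 mice) or 20 mg/m3 of DEP (7 mice) for 90 minutes on 4 consecutive days. Liver was collected, by the label, 90 minutes post exposure. RNA of each whole liver was labelled with Cy5 and hybridised together with Cy3-labelled universal mouse reference RNA, so that 1 array stands for 1 mouse and the number of arrays limits the precision. The dyes were not swapped, so a dye bias of a feature cannot be told apart from a true liver-to-reference difference, although it is shared by all groups. In whole liver, fewer cells of a type and less RNA per cell cannot be told apart.

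Across the 23 arrays the median Cy5 signal of all features was 262 to 549, and 13.8% to 41.9% of features were not above background in Cy5. The 44 genes were above background on all 23 arrays. In the air mice the median log2 ratio of the hepatocyte markers on an array was 4.47 to 5.19, and that of the striated muscle markers was −0.40 to −0.07. The groups were unevenly spread over 3 exposure rounds: the second round held 4 air, 6 CB and 2 DEP mice and the third 2 air, 1 CB and 4 DEP mice.

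The promoters of the 3 genes of the ATP synthase c subunit are shown first, together with those of Cycs and Sdhb. They were chosen because a binding motif of nuclear respiratory factor 1 (NRF1), a known activator of respiratory chain genes, tells them apart. Each line gives the 120 bases before the start site, 5′ to 3′, from RefSeq on GRCm38.p6, with matches to the NRF1 motif GCGCATGC, or to its reverse complement GCATGCGC, in capitals. In Atp5g2 the matches on the opposite strands overlap in 1 palindromic run.
Atp5g1: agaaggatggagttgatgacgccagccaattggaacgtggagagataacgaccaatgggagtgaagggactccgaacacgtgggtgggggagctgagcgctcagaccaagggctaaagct
Atp5g2: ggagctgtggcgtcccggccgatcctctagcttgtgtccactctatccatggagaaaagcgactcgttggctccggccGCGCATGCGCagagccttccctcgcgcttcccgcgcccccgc
Atp5g3: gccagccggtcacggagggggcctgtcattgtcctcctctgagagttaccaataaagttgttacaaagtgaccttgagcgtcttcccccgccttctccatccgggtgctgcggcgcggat
Cycs: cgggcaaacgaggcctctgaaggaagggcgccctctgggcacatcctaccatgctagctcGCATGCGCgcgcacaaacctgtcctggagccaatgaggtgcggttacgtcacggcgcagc
Sdhb: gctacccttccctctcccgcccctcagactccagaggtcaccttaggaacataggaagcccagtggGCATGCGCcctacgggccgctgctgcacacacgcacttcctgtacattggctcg
These windows lie at chr11:96075632-96075751, minus strand, for Atp5g1, at chr15:102671048-102671167, minus strand, for Atp5g2, and at chr2:73911327-73911446, minus strand, for Atp5g3. Those of Cycs and Sdhb lie at chr6:50566570-50566689, minus strand, and at chr4:140961151-140961270, plus strand. Atp5g1, Atp5g2 and Atp5g3 encode the c subunit of the ATP synthase, and of the 3 only Atp5g2 held the NRF1 letters in its window.

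A window of 250 bases before to 50 bases after the start site was listed for 34 of the 44 genes. The 10 genes without one were not searched: Cyc1, Uqcrc2, Uqcrb, Atp5a1, Ndufa2, Ndufb9, Ndufs1, Sdhc, Cox4i1 and Cox6c. The NRF1 motif, searched on both strands, was present in 6 of the 34 (17.6%): Atp5g2, Atp5l, Cox6a1, Cycs, Sdhb and Uqcrc1. It was present in 3.05% of all 27025 genes with a window and in 3.94% of the 17492 that encode proteins. The ETS motif CCGGAAG, of the family of GA-binding protein, was found in 9 of the 34 genes (26.5%), against 9.93% of all genes and 12.9% of the protein-coding ones. The estrogen-related receptor motif AAGGTCA was in 4 (11.8%, against 5.38% of all genes and 4.73% of the protein-coding ones) and the YY1 motif AAGATGG in 5 (14.7%, against 7.28% and 7.18%). The SP1 motif GGGCGG was in 15 (44.1%), above its share of all genes (38.2%) and below that of the protein-coding ones (49.2%). Only Atp5l (2.94%, against 15.7% of all genes and 14.8% of the protein-coding ones) held TATAAA, the letters of a TATA box. Sdhd held both an ETS and an estrogen-related receptor match, Ndufs3 an ETS match, and Atp5g3 an estrogen-related receptor match. A match describes letters and not binding.

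In air-breathing mice the log2 ratio of liver to reference spanned from −0.37 ± 0.30 (SD, n = 8) for Cox7c, a small subunit of complex IV, to 2.88 ± 0.23 (SD, n = 8) for Sdha, the flavoprotein that oxidises succinate. Sdhb, the iron-sulphur subunit of the same complex, had 1.98 ± 0.27 (SD, n = 8). These are ratios within a feature and do not rank the genes by amount of RNA.

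Neither particle gave a gene of oxidative phosphorylation past the threshold. In the fit over all features (limma, Benjamini-Hochberg adjusted p under 0.05), 0 of the 44 genes were called after CB and 0 after DEP, and the same fit called 0 of the 18688 features (0%) in each comparison. At an unadjusted p under 0.05 limma gave 5 of the 44 after CB, among 1110 features in all, and 4 after DEP, among 900. All of these genes were lower after the particles. With arrays centred on their median in place of loess, these counts were 22 after CB, among 4396 features, and 9 after DEP, among 1019. In the third exposure round alone they were 2 after CB, among 1095, and 12 after DEP, among 846, and in the second 1, among 1202, and 1, among 794. Over all features, 3.39% were lower at an unadjusted p under 0.05 after CB and 2.53% after DEP. An Fs test of the kind in the study's methods, run again here on these 18688 features, gave 0 of the 44 after each exposure. The study's own Fs analysis, over its own set of features, listed Atp5g1 as significant after DEP only, so the 2 differ for that gene.

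Most of the 44 genes lay slightly below the air mice. After CB 36 were lower, with a median log2 fold change of −0.07 and a range of −0.36 to 0.14. After DEP 39 were lower, with a median of −0.11 and a range of −0.50 to 0.14. Among all features 49.8% were lower after CB and 50.0% after DEP, with a median of 0.00 in each. These features were not matched to the 44 genes for brightness. The 2 comparisons share the 8 air mice. In 0 of the 44 genes did all CB mice or all DEP mice lie on one side of the air mice, and over all features this held for 11 (0.0589%) and 2 (0.0107%).

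**Figure D1:**
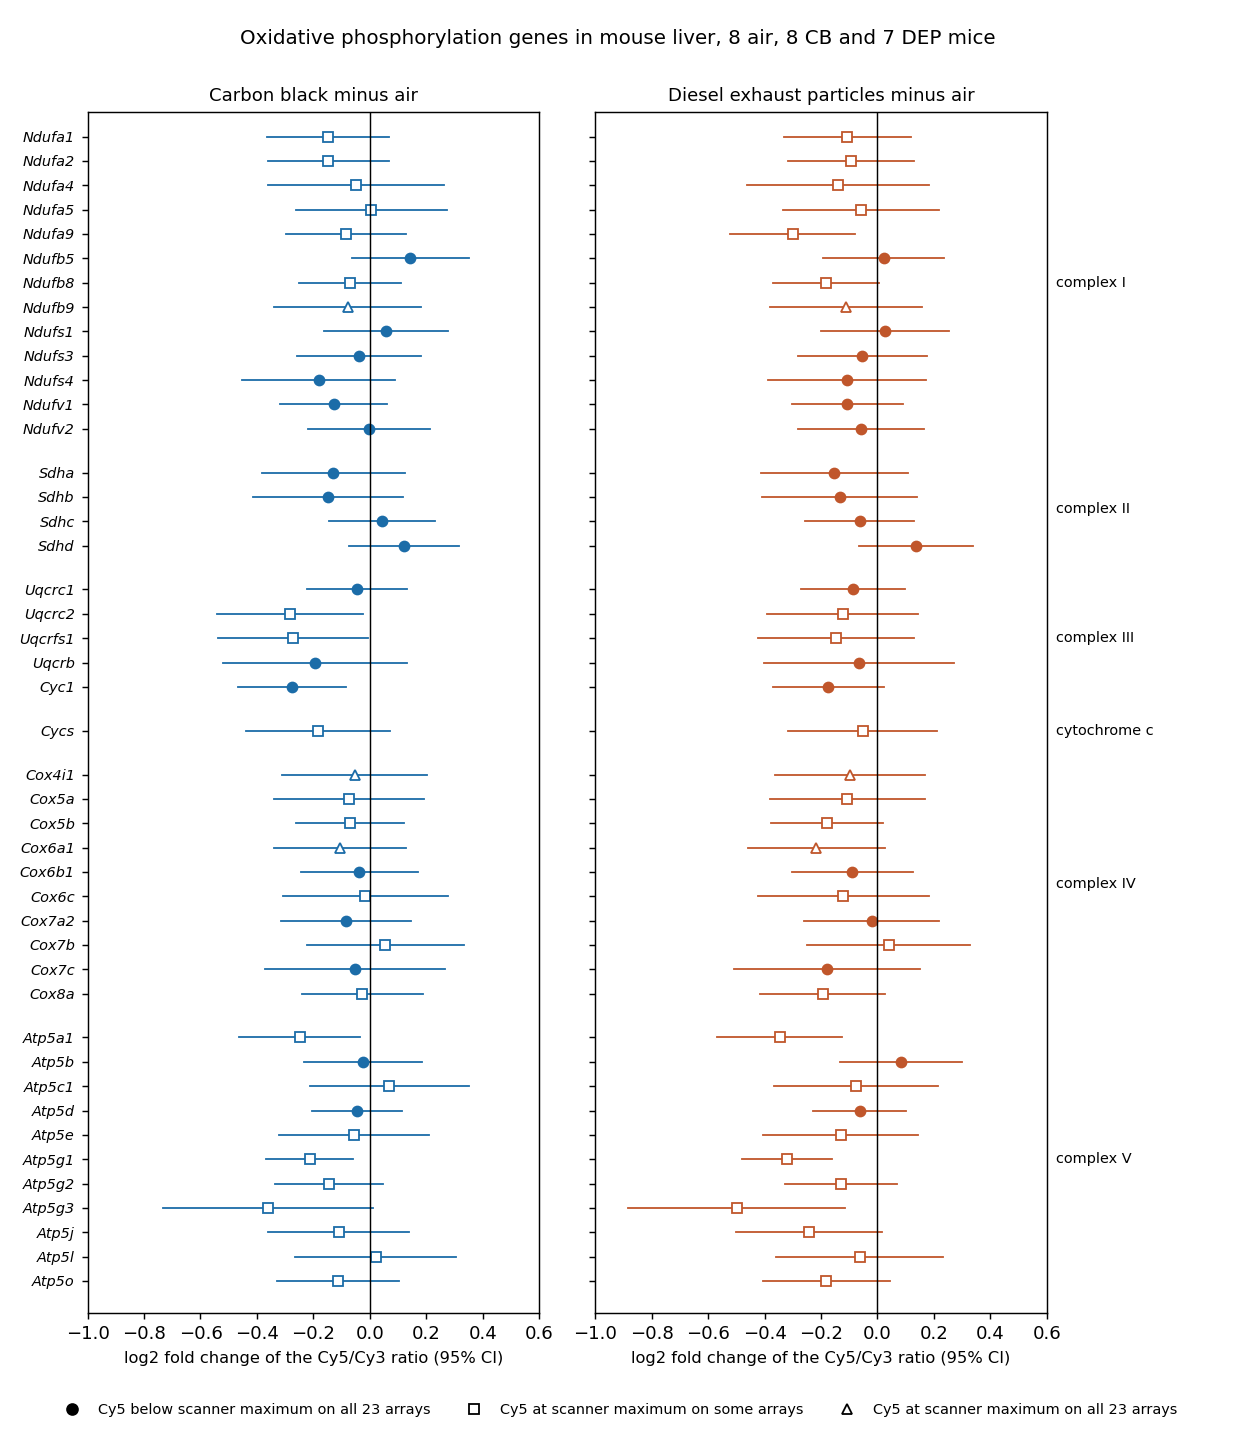
Log2 fold change of the Cy5/Cy3 ratio with its 95% confidence interval (x axis) for the 44 genes (y axis, by complex) after CB (left) and DEP (right), from the limma fit on 8 air, 8 CB and 7 DEP mice. Filled circles are genes with Cy5 below the scanner maximum on all 23 arrays, open squares genes at it on some arrays and triangles genes at it on all, and most points lie left of 0 while most intervals cross it.

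For many of these genes the Cy5 spot reached the scanner maximum of 65535, above which the ratio is capped. Cy5 was below the maximum on every array for 18 genes, at the maximum on some arrays for 23 and at the maximum on all 23 arrays for 3, namely Ndufb9 of complex I and Cox4i1 and Cox6a1 of complex IV. Of the 18 uncapped genes 14 were lower after CB, with a median of −0.05, and 14 after DEP, with a median of −0.07. Of the 23 capped on some arrays 19 were lower after CB, with a median of −0.09, and 22 after DEP, with a median of −0.13. For the 3 genes capped on every array the liver signal has no measured difference, and they are not described one by one. They stay in the counts and medians given for all genes together and for complexes I and IV. In the fit over all mice their ratios count there as lower after each exposure, for all 3, without a measured liver difference.

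The same split was present over all features. The 426 features capped on some arrays had a median log2 fold change of −0.17 after CB and −0.18 after DEP, and 353 and 380 of them were lower. The 18232 features never capped had a median of 0.00 in each comparison, with 49.0% lower. The oxidative phosphorylation genes capped on some arrays were nearer to 0 than that class, and the uncapped ones were below theirs. When capped spots were left out, 37 genes still had values in each group, of which 28 were lower after CB (median −0.06) and 32 after DEP (median −0.11).

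The 2 channels were also examined apart, each relative to the median of its array. The liver signal, Cy5, of the 44 genes had a median difference of −0.05 after CB and −0.05 after DEP, with 27 and 29 genes lower. Over all features these medians were 0.03 and 0.04. The sign of both values for the 44 genes depended on the processing and on single mice. After CB the median was 0.0065 without Air 49, 0.022 under quantile normalization and −0.17 with the array set as a block. After DEP it was 0.032 without DEP 835435, 0.0014 without DEP 55, 0.011 with the round as a block and −0.15 without DEP 51. The reference signal, Cy3, which comes from the same RNA on every array, had a median difference of 0.16 after CB, with 38 of the 44 genes higher, and of 0.11 after DEP, with 30 higher, where all features had 0.01 and 0.01. These values stayed above 0 in all alternatives run but changed in size. The median after CB was 0.087 without Air 835432, 0.057 under quantile normalization and 0.054 with the array set as a block. That after DEP was 0.019 without Air 835432, 0.19 without DEP 835435, 0.054 under quantile normalization and 0.24 with the round as a block. limma called 0 of the 44 genes, and 0% of all features, in either channel. Some Cy3 spots on CB arrays were also at 65535. They were those of Cox6a1 in CB 835052, CB 58, CB 445 and CB 446, of Cox4i1 in CB 59 and of Cox8a in CB 445. Cy5 was at the maximum at these spots too, so their ratios measure no difference. The part of the Cy3 difference in the lower ratios was not tested.

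Among the genes grouped under complex I, which oxidises NADH, 10 of 13 were lower after CB (median −0.07) and 11 after DEP (median −0.11). Of the 6 never capped, 4 were lower after each exposure, with medians of −0.02 and −0.06. Ndufv1, the core subunit that binds NADH and FMN, was never capped. Its log2 ratio had a lowest value of 0.84, a median of 1.02 and a highest of 1.33 in air, 0.78, 0.91 and 1.07 after CB, and 0.63, 0.95 and 1.27 after DEP. The groups overlapped, and the log2 fold change was −0.13 (SE 0.09, limma adjusted p = 0.89) after CB and −0.11 (SE 0.10, adjusted p = 1.00) after DEP.

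Ndufb5, an accessory subunit of the membrane arm, stood on the other side. Its log2 ratio was 0.82 to 1.24 with a median of 1.08 in air, 0.99 to 1.50 with a median of 1.16 after CB, and 0.79 to 1.46 with a median of 1.06 after DEP. The CB and DEP mice reached above the highest air mouse but overlapped the air range. The log2 fold change was 0.14 (SE 0.10, limma adjusted p = 0.89) after CB and 0.02 (SE 0.10, adjusted p = 1.00) after DEP, and it was −0.15 and −0.05 when arrays were centred on their median without loess.

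Ndufa9, an accessory subunit near the ubiquinone site, had one of the lower values after DEP, −0.30 (SE 0.11, unadjusted p = 0.00992, limma adjusted p = 1.00), against −0.08 after CB. Its log2 ratio was 1.38 to 1.84 in air and 0.76 to 1.68 after DEP. The lowest DEP value, that of DEP 55, came from a spot with a Cy5 signal of 528.5 and a Cy3 signal of 229, where the medians over all arrays were 28918 and 7450. Leaving out this spot and a dim spot of Air 54 gave −0.24 after DEP.

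In complex II, the succinate dehydrogenase, no gene was capped on any array. After CB 2 of 4 genes were lower (median −0.04) and after DEP 3 (median −0.10). Sdha and Sdhb, which form the soluble part that oxidises succinate, had −0.13 and −0.15 after CB and −0.15 and −0.13 after DEP. Sdhd, a membrane anchor of the complex, had a log2 ratio of 1.00 to 1.41 with a median of 1.24 in air, 1.07 to 1.56 with a median of 1.39 after CB and 1.09 to 1.61 with a median of 1.39 after DEP. All groups overlapped, and the log2 fold change was 0.12 (SE 0.10, limma adjusted p = 0.90) and 0.14 (SE 0.10, adjusted p = 1.00). The value after CB was −0.16 under median centring. Sdhc, the other anchor, had 0.04 after CB and −0.06 after DEP.

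Complex III, which passes electrons from ubiquinol to cytochrome c, had the lowest median after CB among the complexes with more than 1 gene. All 5 genes were lower after CB (median −0.27), 3 of them at an unadjusted p under 0.05, and all 5 after DEP (median −0.12), with 0 at that level. The 3 never capped, all of them lower, had medians of −0.19 and −0.09. Cyc1 encodes cytochrome c1, the haem subunit that hands the electron on, and was never capped. Its log2 ratio was 0.51 to 0.94 with a median of 0.78 in air, 0.33 to 0.65 with a median of 0.45 after CB, and 0.27 to 0.98 with a median of 0.52 after DEP.

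The CB mice lay in the lower part of the air range or below it, and the DEP mice spanned the whole of it. The log2 fold change of Cyc1 was −0.28 (SE 0.09, unadjusted p = 0.00618, limma adjusted p = 0.71) after CB and −0.17 (SE 0.10, adjusted p = 1.00) after DEP. In the second exposure round and the third, fitted apart, the value after CB stayed below 0, and over leaving out each mouse it was −0.31 to −0.25. Cy5 alone differed by −0.28 after CB and by −0.43 after DEP, and Cy3 by 0.17 and −0.15.

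Uqcrc2, a core subunit facing the matrix, had −0.28 after CB (unadjusted p = 0.0338, adjusted p = 0.84) and Uqcrfs1, the Rieske iron-sulphur protein, −0.27 (unadjusted p = 0.0458, adjusted p = 0.84). The log2 ratio of Uqcrc2 was 0.63 to 1.26 in air and 0.45 to 1.22 after CB, and the ranges of both groups overlapped over most of their length. For Uqcrfs1 the value after CB was −0.15 in the second round alone and −0.82 in the third, which held 1 CB mouse. Uqcrc1, the other core subunit, had −0.05 after CB and −0.09 after DEP. Uqcrb, a small subunit of the complex, had −0.19 after CB, and −0.13 once a single spot of CB 835436 with a Cy5 signal of 356 and a Cy3 signal of 152 was left out.

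Cycs encodes cytochrome c, the carrier between complexes III and IV, and is the only gene with a further feature bearing on its value. The brighter feature, used here, had a log2 fold change of −0.18 after CB and −0.05 after DEP, and the dimmer one 0.07 and −0.04. The features disagreed in sign after CB.

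In complex IV, cytochrome c oxidase, 9 of 10 genes were lower after CB (median −0.05) and 9 after DEP (median −0.11), and 0 reached an unadjusted p under 0.05. The 3 never capped, all of them lower, had medians of −0.05 and −0.09. Cox7a2, subunit 7a of most tissues, had a log2 ratio of 0.58 to 1.32 with a median of 0.81 in air, 0.63 to 1.24 with a median of 0.73 after CB and 0.64 to 1.25 with a median of 0.81 after DEP. Both particle groups lay within the air range, and the log2 fold change was −0.08 (SE 0.11, limma adjusted p = 0.94) after CB and −0.02 (SE 0.12, adjusted p = 1.00) after DEP.

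Cox7c, subunit 7c, was −0.84 to −0.03 with a median of −0.27 in air, −0.93 to 0.11 with a median of −0.59 after CB and −0.82 to −0.28 with a median of −0.52 after DEP. Its CB group was the widest of the 3, and all overlapped. The log2 fold change was −0.05 (SE 0.15, limma adjusted p = 0.98) after CB and −0.18 (SE 0.16, adjusted p = 1.00) after DEP, and after CB it was 0.02 without CB 835436. Cox7b was the single subunit of the complex that was higher after each exposure, with 0.06 and 0.04. Cox8a and Cox5b had −0.03 and −0.07 after CB and −0.19 and −0.18 after DEP. In CB 445 both channels of Cox8a were at the scanner maximum.

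Complex V, the ATP synthase, held 3 of the 4 genes at an unadjusted p under 0.05 after DEP. Of its 11 genes 9 were lower after CB (median −0.11) and 10 after DEP (median −0.13). These medians rest on genes with capped spots, since the 2 genes never capped, Atp5b and Atp5d, had medians of −0.04 and 0.01, with 2 and 1 lower. Atp5g1, a gene of the c subunit, is also on the study's own list of differentially expressed genes, as significant after DEP only. The paper allows that most genes on that list may be false positives. The list was chosen on these mice, so the direction of Atp5g1 here is not independent evidence. Its log2 ratio was 1.24 to 1.43 with a median of 1.40 in air, 0.98 to 1.37 with a median of 1.14 after CB and 0.89 to 1.31 with a median of 1.01 after DEP.

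The air mice were tightly grouped, with a mean of 1.36 ± 0.07 (SD, n = 8), and the highest CB and DEP mice reached into their range. The log2 fold change of Atp5g1 was −0.21 (SE 0.07, unadjusted p = 0.00823, limma adjusted p = 0.72) after CB and −0.32 (SE 0.08, unadjusted p = 0.000333, adjusted p = 0.75) after DEP. The difference between CB and DEP was 0.11 (95% confidence interval −0.05 to 0.27). Within the second round the values were −0.18 and −0.26, and within the third −0.31 and −0.30. The Cy5 spot was at the scanner maximum on 1 air and 2 DEP arrays, and without these spots the values were −0.20 and −0.34.

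**Figure D2:**
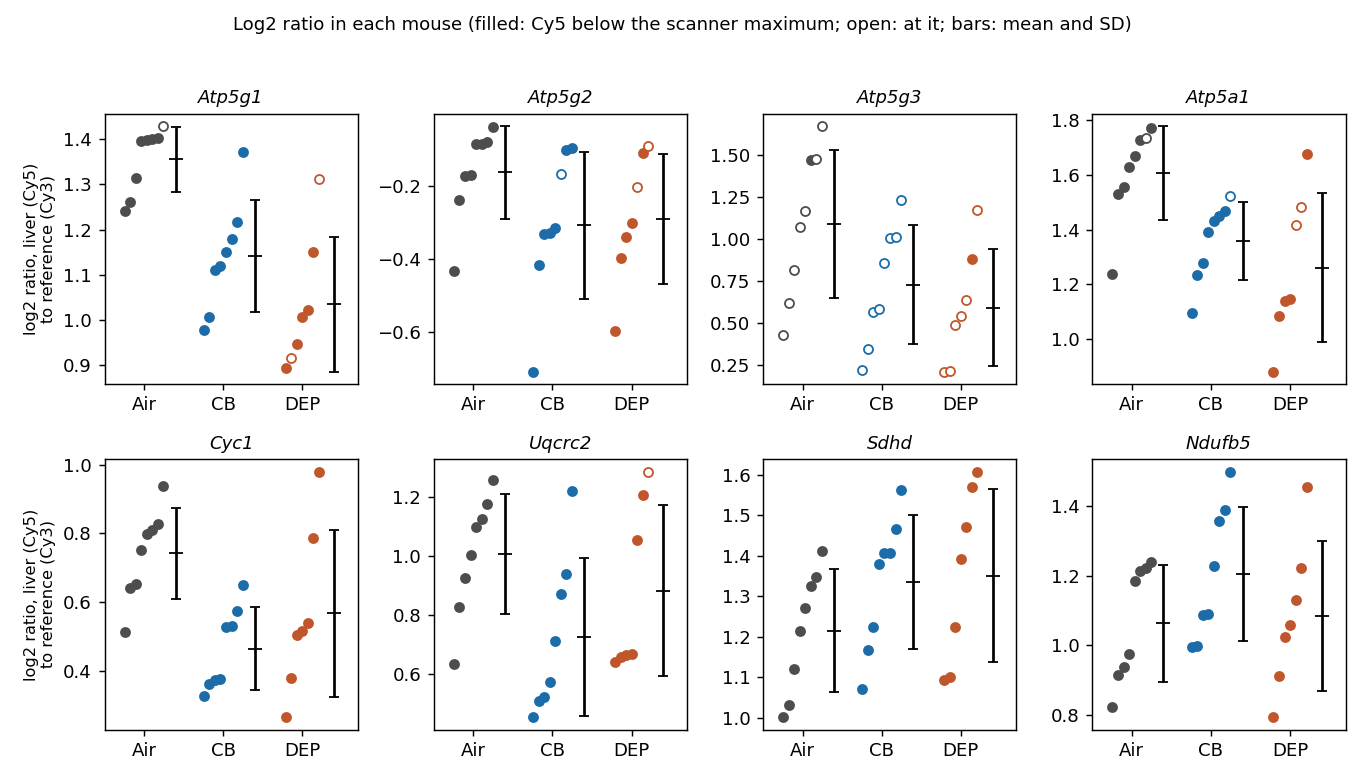
Log2 ratio of liver (Cy5) to reference (Cy3) RNA (y axis) in each air, CB and DEP mouse (x axis) for 8 genes, with open points where Cy5 was at the scanner maximum and bars for the mean and SD. Atp5g1 spans 1.24 to 1.43 in air and 0.89 to 1.31 after DEP, while Sdhd and Ndufb5 overlap throughout.

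The signals of Atp5g1 went the other way from its ratio when read one channel at a time. Cy5 was 0.39 higher after CB and 0.34 higher after DEP, and Cy3 0.71 and 0.68 higher. These differences rested on 2 air arrays. In Air 443 the spot had a Cy5 signal of 3469.5 and a Cy3 signal of 1632, and in Air 835433 signals of 9306 and 2937, where the medians over the 23 arrays were 36976.5 and 11551. The log2 ratios of these dim spots, 1.40 and 1.40, were like those of the other air mice. Without them the Cy5 difference of Atp5g1 was −0.28 after CB and −0.32 after DEP, the Cy3 difference 0.14 and 0.11, and the log2 fold change of the ratio −0.20 and −0.31.

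Atp5g3 and Atp5g2 encode the same mature c subunit. Atp5g3 had the lowest log2 fold changes of the 44 genes, −0.36 (SE 0.18, limma adjusted p = 0.85) after CB and −0.50 (SE 0.19, unadjusted p = 0.0133, adjusted p = 1.00) after DEP. Its Cy5 spot was at the scanner maximum on 7 air, 8 CB and 6 DEP arrays, so on those arrays the liver side of the ratio was fixed at that maximum and the values bound no change in liver RNA. The Cy3 signal was 606.5 to 31846 in air, 17699 to 47643 after CB and 16577 to 36392 after DEP. The lowest of these, in Air 50, was again dim in both channels, with a Cy5 signal of 1736.

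Atp5g2 had a log2 ratio of −0.43 to −0.04 with a median of −0.13 in air, −0.71 to −0.10 with a median of −0.32 after CB and −0.60 to −0.09 with a median of −0.30 after DEP. The groups overlapped over most of their length. The log2 fold change was −0.15 (SE 0.09, limma adjusted p = 0.89) after CB and −0.13 (SE 0.10, adjusted p = 1.00) after DEP.

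Atp5a1, the alpha subunit of the catalytic head, had a log2 ratio of 1.24 to 1.77 with a median of 1.65 in air, 1.10 to 1.52 with a median of 1.41 after CB and 0.88 to 1.67 with a median of 1.15 after DEP. As measured, all CB mice lay below 7 of the 8 air mice. The highest of them, CB 59 at 1.522, had its Cy5 spot at the scanner maximum, which caps the ratio. The lowest of those 7 air mice, Air 835433, had 1.530, so the order of these 2 mice is not settled. The log2 fold change was −0.25 (SE 0.10, unadjusted p = 0.0248, limma adjusted p = 0.83) after CB and −0.35 (SE 0.11, unadjusted p = 0.00358, adjusted p = 1.00) after DEP. Cy5 alone differed by −0.26 and −0.37 and Cy3 by 0.16 and 0.07, and 4 spots were at the scanner maximum.

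The beta subunit, Atp5b, which holds the catalytic sites beside the alpha subunit, did not follow it. Its log2 ratio was 0.33 to 0.87 with a median of 0.57 in air, 0.34 to 0.79 with a median of 0.55 after CB and 0.33 to 1.01 with a median of 0.69 after DEP. The groups overlapped fully, and the log2 fold change was −0.02 (SE 0.10, limma adjusted p = 0.98) after CB and 0.08 (SE 0.11, adjusted p = 1.00) after DEP, or −0.05 after DEP under median centring. The difference between the 2 genes was not tested. Atp5d, the delta subunit of the central stalk, was 0.74 to 1.19 in air, 0.82 to 1.09 after CB and 0.73 to 1.07 after DEP, with log2 fold changes of −0.05 (SE 0.08, limma adjusted p = 0.96) and −0.06 (SE 0.08, adjusted p = 1.00). With the deposited log2 ratios the value after CB was 0.06.

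Dim spots like those of Atp5g1 were counted over all genes. A spot was taken as dim when both channels were more than 2 log2 units below the median of the same feature over the 23 arrays. There were 15 such spots among the 1012 of the oxidative phosphorylation genes (1.48%), against 0.372% of all spots, in 11 of the genes. These shares were not matched for brightness, and a feature near background has little room to fall that far. They therefore do not show a trait of these genes. Of the 15 spots, 8 were on air, 4 on CB and 3 on DEP arrays. Ndufv2, an iron-sulphur subunit of complex I, is the clearest case: its spot in Air 442 had a Cy5 signal of 202 and a Cy3 signal of 161 where the medians were 5616 and 4298.5. With that spot, Cy5 differed by 0.55 after CB and 0.70 after DEP, and without it by −0.07 and 0.08. The ratio of Ndufv2 had a log2 fold change of 0.00 after CB and −0.06 after DEP, with or without the spot. Over the 44 genes, leaving out the 15 spots left 36 genes lower after CB (median −0.07) and 39 after DEP (median −0.11).

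**Figure D3:**
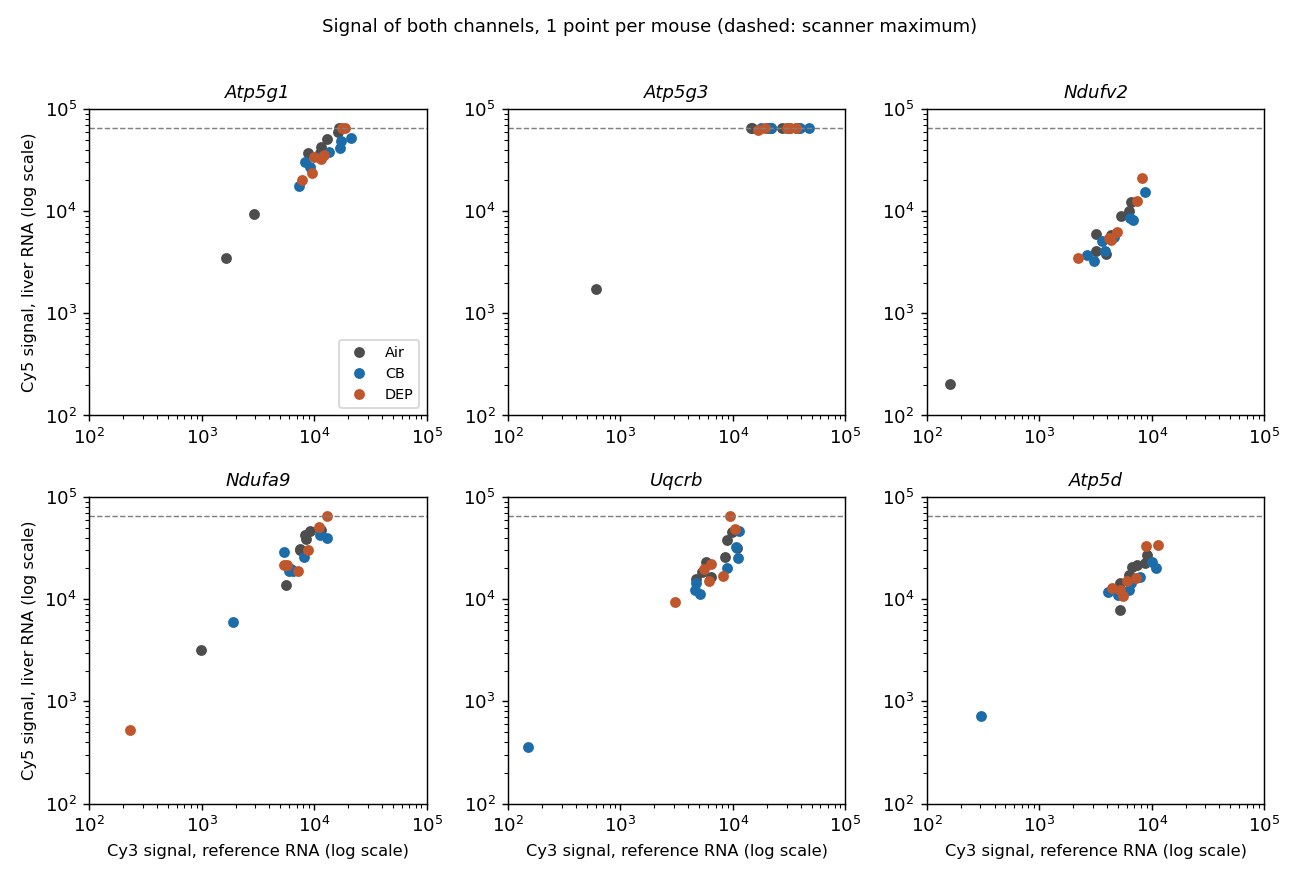
Cy5 signal of liver RNA (y axis, log scale) against Cy3 signal of reference RNA (x axis, log scale) for 6 genes, 1 point for each of 23 mice, with a dashed line at the scanner maximum of 65535. Single spots lie far down the diagonal, such as Air 442 for Ndufv2 (202 and 161) and CB 835436 for Atp5d (716 and 306), and the Cy5 values of Atp5g3 lie along the dashed line.

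Between mice, the median over the 44 genes, taken as the log2 ratio less the air mean of each gene, was −0.12 to 0.12 in air, −0.19 to 0.05 after CB and −0.34 to 0.07 after DEP, with a pooled SD of 0.10. The group ranges overlapped. The number of the 44 genes at the scanner maximum was 5 to 19 on the air arrays, 4 to 18 on the CB arrays and 3 to 26 on the DEP arrays.

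DEP 51 had the most capped genes, 26, and its median was 0.32 over the 18 uncapped genes and −0.44 over the other 26. DEP 835435 had the fewest, 3, and its medians were −0.25 and −0.36, so both classes were low in that mouse. Without DEP 835435 the median fold change over the 44 genes after DEP was −0.08.

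**Figure D4:**
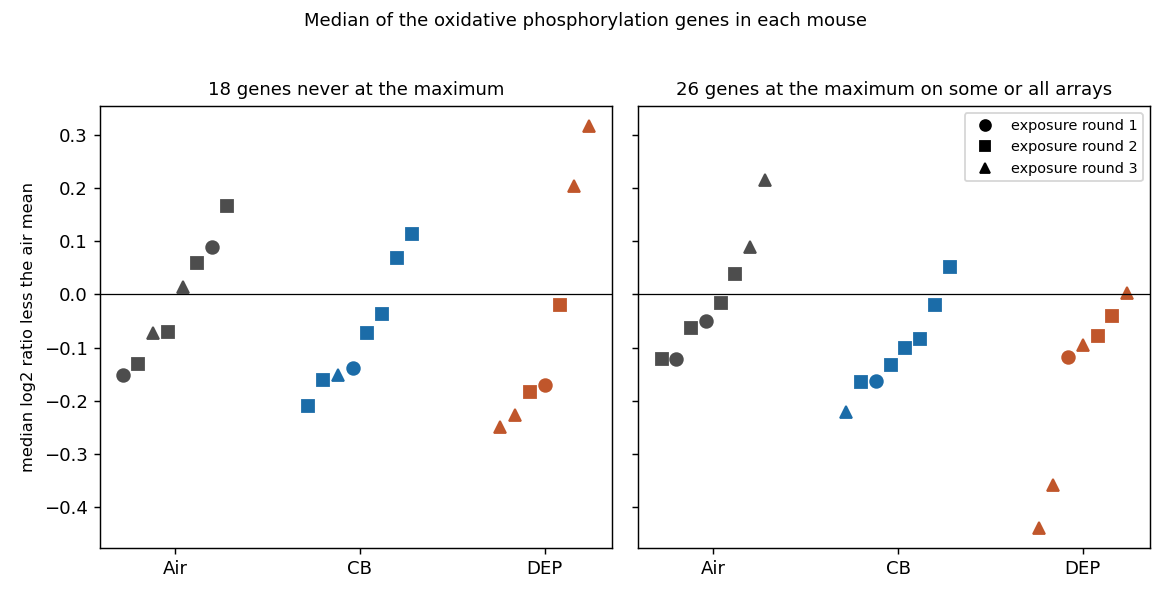
Median log2 ratio less the air mean (y axis) in each air, CB and DEP mouse (x axis) over the 18 genes never at the scanner maximum (left) and the 26 at it on some or all arrays (right), with marker shape for the exposure round. The groups overlap on both sides, and DEP 51 is the highest DEP mouse on the left (0.32) and the lowest on the right (−0.44).

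The exposure rounds gave different sizes. Both air mice of the third round were on a single array set, and the air mice of the second were on other sets. Round and array set therefore cannot be told apart for the air mice of these rounds. The same 2 third-round air arrays had the lowest median Cy3 of the 44 genes relative to the array median. The part of the array set in the sizes by round was not tested. In the second round alone 26 of the 44 genes were lower after CB (median −0.04) and 30 after DEP (median −0.10), and in the third 38 (median −0.30, with 1 CB mouse) and 33 (median −0.17). With the round as a block in the fit 35 and 39 were lower. The difference between the rounds was tested in limma with an interaction: 0 of the 44 genes passed for CB, against 74 of all features (0.396%), and 0 for DEP, against 0%. At an unadjusted p under 0.05 there were 4 of the 44 for CB and 9 for DEP, against 5.86% and 4.69% of all features. The test for CB rests on the single CB mouse of the third round. The first round, with 2 air, 1 CB and 1 DEP mice, was not fitted apart.

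CB and DEP were also compared directly. limma called 0 of the 44 genes and 0% of features, and 0 of the 44 reached an unadjusted p under 0.05, against 643 features in all (3.44%). The ratio was lower after CB than after DEP in 14 genes and the median difference was 0.04. The lowest difference was that of Uqcrc2, −0.16 (95% confidence interval −0.43 to 0.11), and the highest that of Ndufa9, 0.22 (95% confidence interval −0.01 to 0.44). Without spots dim in both channels these were −0.13 and 0.12, and that of Ndufa9 was then below the highest value in complex IV, 0.17. In complex III 4 of 5 genes were lower after CB than after DEP (median −0.12) and in complex V 2 of 11 (median 0.08), where the 2 never capped had a median of −0.05. For the mean of both particles against air, limma likewise called 0 of the 44 genes and 0% of features.

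Other genes of the same machinery were described in the same way. Of 29 further subunits and associated proteins of complexes I, III and V that the rule did not include, 25 were lower after CB (median −0.14) and 25 after DEP (median −0.15), with 5 and 4 at an unadjusted p under 0.05 and 0 called. Ndufb7, an accessory subunit of complex I, had −0.33 (limma adjusted p = 0.62) after CB, and Ndufc2, another, −0.33 (limma adjusted p = 1.00) after DEP. The 16 of these never capped had 12 lower after each exposure (medians −0.11 and −0.08).

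The factors that assemble the complexes did not share this direction. Of 21 assembly factors, none of them capped, 5 were lower after CB (median 0.05) and 11 after DEP (median 0.00). Cox15, needed for the haem of complex IV, had 0.29 (limma adjusted p = 0.83) after CB, and Bcs1l, which assembles complex III, 0.31 (limma adjusted p = 1.00) after DEP. Of 13 regulators of mitochondrial biogenesis 4 were lower after each exposure (medians 0.06 and 0.04), with Tfb2m, a mitochondrial transcription factor, at 0.41 (limma adjusted p = 0.84) after CB and Esrra, an estrogen-related receptor, at 0.19 (limma adjusted p = 1.00) after DEP. The difference between the lists was not tested.

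Of 16 genes of the tricarboxylic acid cycle, which feeds NADH and succinate to complexes I and II, 12 were lower after CB (median −0.07) and 11 after DEP (median −0.05). Pdha1, of pyruvate dehydrogenase, had −0.19 (limma adjusted p = 0.84) after CB and Idh3b, of isocitrate dehydrogenase, −0.21 (limma adjusted p = 1.00) after DEP. Of 11 carriers, electron transfer flavoproteins and uncoupling proteins 9 were lower after CB (median −0.07) and 8 after DEP (median −0.13), with Etfb at −0.31 (limma adjusted p = 0.70) and Etfdh at −0.44 (limma adjusted p = 1.00). Of 5 complex IV isoforms of other tissues, such as the lung isoform Cox4i2 (−0.18 and −0.27), 3 were lower after CB and 2 after DEP.

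Markers of the cells in a liver sample were set beside these values. Of 9 hepatocyte markers 6 were lower after CB (median −0.15) and 8 after DEP (median −0.26), and only Ttr among them was never capped, with −0.15 and −0.03. Of 12 striated muscle markers 5 and 6 were lower (medians 0.04 and 0.01), and of 6 pancreatic acinar markers 5 and 1 (medians −0.07 and 0.05). Of 7 Kupffer cell and macrophage markers 4 and 3 were lower (medians −0.03 and 0.10), and of 4 erythroid markers 4 and 3 (medians −0.30 and −0.25). The median log2 ratio of the erythroid markers on an array was 2.65 to 3.10 in air, 2.21 to 2.85 after CB and 1.99 to 2.93 after DEP. The part of blood or of any other cell type in the values of the 44 genes was not tested.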

How the data were processed

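Total RNA of each liver (Cy5) and universal mouse reference RNA (Cy3) had been amplified, labelled and hybridised to Agilent 2-colour oligonucleotide arrays by the authors, who scanned them and quantified the spots with ImaGene. The deposited values are the median spot intensity of each channel, not background-subtracted, and the log2 ratio after lowess within the array (R 2.4.1, per the labels). No genome build applies to these values.

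The 44 genes, the pathway lists and the marker lists were chosen with earlier results of these data known. Intensities of the 18688 features with a listed gene (3887 had none) were normalised by loess within each array, and log2 ratios of all 23 arrays were fitted together with limma 3.58.1 (R 4.3.3) with Benjamini-Hochberg adjustment at 0.05. The lowest correlation of these ratios with the deposited ones on an array was 0.983. Each channel was also fitted as the log2 intensity less its array median. A spot at 65535 was taken as at the scanner maximum. Groups came from the sample titles, rounds from the labelled exposure dates and array sets from the array identifiers. Each array is a separate mouse. Genes given in full were Atp5g1 and, per complex, the gene never at the scanner maximum with the smallest p after CB and after DEP. From each other list the gene with the smallest p after each exposure was named, and other members were named after their values were seen.

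Alternatives were the deposited ratios, median centring, normexp background correction (offset 50), restriction to features above background on at least 7 arrays, rounds, array sets and exposure days as blocks, single rounds, the Fs test with 100 shuffles, averaging the features of a gene, quantile normalization of each channel and leaving out each mouse. Leaving out dim or capped spots was added after seeing the data. The scripts were tested on simulated data, with known changes added to the CB mice after residuals were shuffled within features. limma recovered 49 of 100 features changed by 0.5 log2 units and 90 of 100 changed by 1. A lack of calls therefore does not show that changes of 0.5 or less were absent.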

Additional observations from a re-analysis of the deposited data

Results flagged for a closer look

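Among the log2 ratios of 14 genes and the median over the 44 genes, examined in each group, 1 value lay far from the others of its group. The log2 ratio of Atp5a1 in Air 54 was 1.237, and the next air mouse had 1.53, a gap of 0.549 of the range of the air mice. Without Air 54 the log2 fold change of Atp5a1 after CB was −0.30. With 45 groups examined, chance would give about 2.25 such values.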

How the results depend on the processing

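The 44 genes gave 0 calls for each comparison and channel under every alternative run, leaving out each mouse included. After centring arrays on their median without loess, limma called 285 features after CB and 46 for the mean of both particles, and the median over all features was −0.11 after CB and −0.04 after DEP. The median over the 44 genes was then −0.35 after CB, −0.24 after DEP, −0.11 for CB minus DEP and −0.29 for the mean of both particles, which is −0.25 after CB and −0.20 after DEP relative to all features, and all 44 and 43 were lower. In the same setting Ndufb5 was −0.15 after CB and −0.047 after DEP, Sdhd −0.16 after CB and Atp5b −0.053 after DEP. In the third round alone, with 1 CB mouse assumed to vary like the other groups, limma called 50 features after CB and 100 for CB minus DEP, the medians over the 44 genes were −0.30 after CB, −0.084 for CB minus DEP and −0.25 for the mean of both particles, and Sdhd was −0.076 and Atp5b 0.25 after CB. The second round alone put Cox7c at 0.067 after CB and Ndufb5 at −0.14 after DEP. With the deposited ratios Cox7c was 0.0019 and Atp5d 0.059 after CB, and Cox7a2 0.0038 after DEP. The Fs test called 1 feature after CB, 1 after DEP and 1 for the mean of both particles, and the restriction to features above background on at least 7 arrays, which kept 15148 features and all 44 genes, called 1 for the mean of both particles. The causes were not tested.

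Leaving out each mouse in turn, the features called were 0 to 1 after CB (1 without CB 59 and without Air 442) and 0 to 2 for the mean of both particles (2 without Air 442, and 1 without CB 48, Air 50, Air 835433 or DEP 444). Cox7c ranged from −0.13 to 0.021 and Atp5b from −0.059 to 0.017 after CB, and Ndufb5 from −0.040 to 0.070 and Cox7a2 from −0.082 to 0.042 after DEP, so each changed sign. The median over the 44 genes ranged from −0.11, without Air 54, to −0.05, without Air 835433, after CB, and from −0.13 to −0.08 after DEP. No paired analysis was possible because the numbers in the sample titles name single arrays and are shared by no groups. Cy5 was at the scanner maximum on at least 1 array for 26 of the 44 genes.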
